A study of Mus musculus with 16 samples.

Results

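The genes described here are 51 mouse genes of DNA replication and the S phase of the cell cycle, taken as a fixed list by gene name and not by their values. Every one of the 51 had a probe on the array, out of 20972 genes that could be named, and 49 passed a filter that asks for a probe well above background throughout 1 of the groups or more. The remaining 2, Ccne2 (a cyclin of the G1/S transition) and Brca1 (a recombination repair factor), did not pass that filter and have no value below. The arrays measured RNA of donor T cells in a mouse model of ovarian graft-versus-host disease, in which T cells of an allogeneic haematopoietic graft attack the recipient. All samples were from C57BL/6 background females, per the labels, and were sorted through 2 rounds as CD4+ or CD8+ cells. Splenic CD8 cells were taken from syngeneic (3 arrays) and allogeneic recipients (3 arrays), and ovarian CD8 cells from allogeneic recipients (4 arrays). The CD4 groups, of 2 arrays each, had the same 3 origins. No ovarian cells after syngeneic transplantation were among the groups, so ovary and spleen were compared within allogeneic transplantation only. The labels used here give no age, cell dose, conditioning or day after transplantation, and do not tell whether each replicate is a different animal or a pool, so the p-values measure the spread between these samples, which may be technical.

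A cell copies its genome once per division, in S phase. In G1 the origin recognition complex, Cdc6 and Cdt1 load the Mcm2 to Mcm7 helicase onto DNA. At the start of S phase Cdc45, the GINS complex and Mcm10 turn it into a moving helicase, and polymerases, the sliding clamp and ligase copy both strands behind it. Resting T cells hold most of this machinery at a low level, and antigen stimulation brings it up largely through E2F transcription factors, which are released when cyclin-dependent kinases act on the retinoblastoma protein.

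The promoters of the replication genes often held the sequence that E2F factors are known to bind. The window searched ran from 250 bases before to 50 bases after each gene's start in RefSeq (GRCm38.p6), and 42 of the 51 genes had one. The motif was spelled TTTGGCGC, TTTCCCGC, TTTCGCGC or TTTGCCGC and was sought on both strands, overlapping matches included. It was found in 17 of the 42 promoters (40.5%), against 704 of all 27025 genes with such a window (2.60%). Of the 48 other replication genes with a window, from a second list described further on, 16 held it (33.3%), and of 27 mitosis genes, 1 did (3.70%). With the core GGCGGGAA in its place, 7 of the 42 promoters matched (16.7%) against 2.52% of all genes. These matches describe letters in a window, and binding was not measured. To show the motif in genes that behaved differently, 8 of the promoters follow as the 160 bases before the start, 5′ to 3′ on the gene's strand, with the match in capitals. The first 6 belong to genes that were higher in CD8 cells after allogeneic transplantation, Gins3 to the 1 gene that was lower, and Cdc25a to a gene whose call rests on 1 spot, as given below. Mcm5 and Mcm6 each carried overlapping matches on opposite strands, and Mcm6 a further match nearer the start. Mcm5 lies at chr8:75109349-75109508 (plus strand), Mcm6 at chr1:128359706-128359865 (minus strand), Cdc6 at chr11:98907991-98908150 (plus strand) and Orc1 at chr4:108579294-108579453 (plus strand). Pola1 lies at chrX:93632156-93632315 (minus strand), Dtl at chr1:191575545-191575704 (minus strand), Gins3 at chr8:95633399-95633558 (plus strand) and Cdc25a at chr9:109875419-109875578 (plus strand).
Mcm5: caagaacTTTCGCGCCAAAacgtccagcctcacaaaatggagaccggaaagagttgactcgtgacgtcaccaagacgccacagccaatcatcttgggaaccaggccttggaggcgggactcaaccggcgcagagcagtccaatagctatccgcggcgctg
Mcm6: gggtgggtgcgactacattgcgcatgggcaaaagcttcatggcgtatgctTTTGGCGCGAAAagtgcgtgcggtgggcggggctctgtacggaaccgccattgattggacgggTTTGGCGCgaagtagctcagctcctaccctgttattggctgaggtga
Cdc6: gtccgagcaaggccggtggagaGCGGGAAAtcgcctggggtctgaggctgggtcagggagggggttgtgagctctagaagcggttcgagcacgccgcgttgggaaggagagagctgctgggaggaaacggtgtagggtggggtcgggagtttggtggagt
Orc1: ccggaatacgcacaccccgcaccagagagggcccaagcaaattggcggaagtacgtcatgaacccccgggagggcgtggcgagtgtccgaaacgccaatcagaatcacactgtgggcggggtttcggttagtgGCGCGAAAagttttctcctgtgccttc
Pola1: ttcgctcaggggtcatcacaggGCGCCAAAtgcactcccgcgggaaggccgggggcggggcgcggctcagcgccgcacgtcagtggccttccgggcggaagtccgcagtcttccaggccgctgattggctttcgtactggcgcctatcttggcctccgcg
Dtl: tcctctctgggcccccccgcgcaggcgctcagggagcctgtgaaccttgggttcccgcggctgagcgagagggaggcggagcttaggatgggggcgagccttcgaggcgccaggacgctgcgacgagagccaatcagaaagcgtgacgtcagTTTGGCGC
Gins3: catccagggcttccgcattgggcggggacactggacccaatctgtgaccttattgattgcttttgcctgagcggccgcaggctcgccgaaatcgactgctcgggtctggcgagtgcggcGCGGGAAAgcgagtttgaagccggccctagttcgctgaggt
Cdc25a: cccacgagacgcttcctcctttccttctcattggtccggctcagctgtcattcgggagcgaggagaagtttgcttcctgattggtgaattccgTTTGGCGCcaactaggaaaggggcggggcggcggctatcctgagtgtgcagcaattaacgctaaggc

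**Figure D1:**
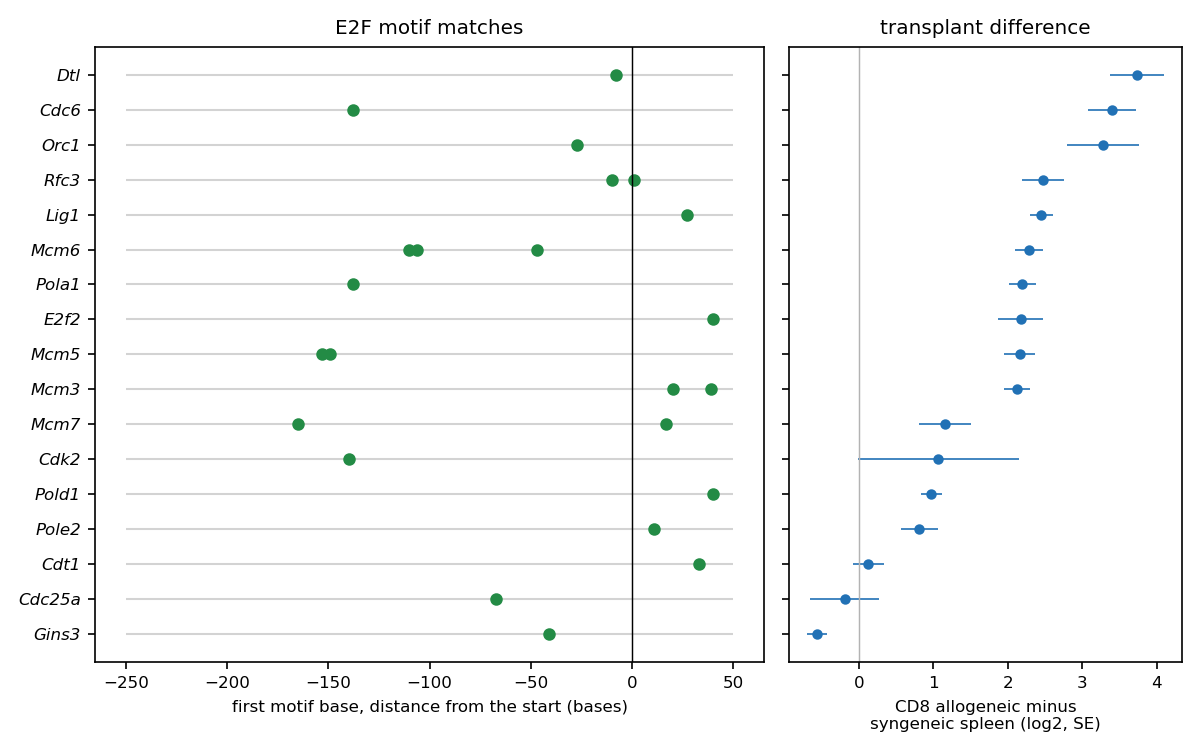
Position of each E2F motif match in the 17 promoters that held one (left; distance of its first base from the gene's start, in bases, with the searched window in grey) and the gene's difference between allogeneic and syngeneic splenic CD8 cells (right; log2, with the standard error). Matches lie on both sides of the start, and genes with a match run from -0.56 (Gins3) to 3.74 (Dtl).

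Most genes with the motif and most without it were called higher in CD8 cells, and whether the motif bears on the rise was not tested. Of the 17 genes with a match, 13 were called higher in allogeneic than in syngeneic splenic CD8 cells, with a median log2 difference of 2.16. Of the 24 measured genes with a window and no match, 22 were called higher, with a median of 1.81. Tk1, which had the largest difference of the 49, had no match in its window. Cdt1, Cdk2 and Cdc25a, which had one, were not called, Cdk2 and Cdc25a each with a single low spot given below.

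Signal levels and array quality bear on the CD4 values more than on the CD8 values. A level below is the log2 processed signal minus the array's 75th percentile, so a difference of 1 between groups is a 2-fold change. Before that shift the 75th percentile ran from 67.6 to 450 intensity units, and replicate 2 of the allogeneic splenic CD4 and of the ovarian CD4 cells were the dimmest. Replicate 1 of the allogeneic splenic CD4 cells carried a contiguous dim area of 4586 spots (7.73% of the array) with a median of -3.15 log2 units against the same probes elsewhere. The probes of Mcm4, Mcm7, Gins2, Rfc5, Prim1, Rrm1 and E2f1 lay in it, and the CD4 results of these genes that are described below are given with these spots and without them. Weaker dim areas on replicate 1 of the allogeneic splenic CD8 cells held the probes of Cdc25a and Mcm2, at medians of -1.0 and -0.88. Spots flagged as outliers left no value for Mcm4 on ovarian CD4 replicate 1 and for Gmnn on allogeneic splenic CD8 replicate 1, and those genes were fitted without them. Orc1 was well above background on 8 of the 16 arrays, Chek1 on 9, Pola2 on 13, Tyms on 14, and Gins2, E2f1 and Cdk2 on 15. Precision throughout is limited by the number of arrays.

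The sorted subsets carried their defining genes. The summed level of Cd8a and Cd8b1 was 85.0 to 142 times the array's 75th percentile on the CD8 arrays and 0.177 to 1.17 times on the CD4 arrays, and Cd4 stood at 22.3 to 47.2 on the CD4 arrays and 2.67 to 5.46 on the CD8 arrays. Transcripts of other cells moved with the groups too. Of 8 B-cell markers 7 were measured, and their summed level was 17.2 to 29.2 in syngeneic and 3.45 to 6.01 in allogeneic splenic CD8 cells, 40.7 to 87.5 in syngeneic and 9.88 to 11.45 in allogeneic splenic CD4 cells, and 1.62 to 2.69 in both ovarian groups together. Of 8 macrophage markers 6 were measured, at 6.24 to 9.70 in the CD8 groups, 19.8 to 35.6 in syngeneic CD4, 73.1 to 92.5 in allogeneic splenic CD4 and 36.6 to 86.2 in ovarian CD4 cells. The 6 measured markers of erythroid cells, a lineage that also divides, summed to 22.8 to 53.6 in syngeneic CD4 and 3.51 to 21.2 in the other 5 groups, and Tfrc among them is also expressed by dividing T cells. Ovarian genes were present in part. As summed levels, granulosa markers stood at 19.3 to 22.4 in ovarian and 19.9 to 21.2 in allogeneic splenic CD8 cells. In CD4 cells they stood at 30.9 to 31.5 in ovary and 24.2 to 26.8 in allogeneic spleen. Theca and luteal markers summed to 9.90 to 18.9 in ovarian and 0.578 to 23.05 in allogeneic splenic CD8 cells. Their ovarian CD4 sums lay within the allogeneic splenic span of 11.03 to 25.9. Stromal sums overlapped in CD8 cells and were lower in ovarian CD4 cells. The defining oocyte markers Zp1, Zp2, Zp3 and Bmp15 did not pass the filter, and neither of the 2 measured oocyte nor the 2 measured endothelial markers was called between ovary and allogeneic spleen. Of 5 theca and luteal markers 4 were measured, and Hsd3b1, a steroidogenic enzyme, was called higher in the ovary in both subsets, at 0.61, -0.55, -0.77 and -0.64 in ovarian against -7.24, -6.70 and -5.98 in allogeneic splenic CD8 cells and 0.62 and 0.76 against -5.28 and -4.58 in CD4 cells, where the splenic values were not well above background. Cyp11a1, of the same pathway, was called higher in ovarian CD8 cells (limma adjusted p = 0.016). Of 7 granulosa markers 4 were measured, and Nr5a2 was called higher in ovarian CD4 cells (2.99 ± 0.50, standard error). Of 7 stromal markers 4 were measured, of which Mgp was called higher in ovarian CD8 cells (-4.85, -0.61, -3.15 and -0.63 against -7.51, -6.96 and -6.29) and Dcn lower in ovarian CD4 cells (-2.57 ± 0.50). Hsd3b1, Cyp11a1 and Mgp passed the filter only through ovarian groups and were not well above background in allogeneic splenic cells. Their calls are therefore description and not independent support. The part of cells other than T cells in the results below was not tested.

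After allogeneic transplantation, splenic CD8 cells carried the replication genes at several times their level in syngeneic splenic CD8 cells. Of the 49 genes, 43 were called higher, where called means a Benjamini-Hochberg adjusted p under 0.05 in limma's fit over all 26891 features, of which 16.9% were called higher. Of the 49 only Gins3 was called lower, against 20.3% of all features. The median log2 difference was 2.05 over the 49 genes and -0.21 over all features. In 42 of the 49 genes all 3 allogeneic arrays lay above all 3 syngeneic arrays, as in 22.2% of all features. The genes not called were Cdt1, Tyms, Cdc25a, Cdk2 and Chek1. In RNA of sorted populations, more cells in S phase and more RNA of these genes per cell cannot be told apart. The gene median was 2.02 with the slide as a block and 2.14 and 1.63 on each of the 2 slides alone. On each slide alone 1 of the compared groups had a single array. The dim CD4 spots enter the error that all groups share: without them the CD8 differences of their genes were the same with standard errors of 0.17 for Rrm1 (0.61 with them), 0.20 for E2f1 (0.78), 0.39 for Gins2 (0.55), 0.12 for Mcm7 (0.35), 0.12 for Mcm4 (0.22) and 0.14 for Prim1 (0.22), and the 6 were called either way. Under normexp background correction with quantile normalization the median over all features was -0.05 and that over the replication genes 1.46, with 42 called higher and Gins3 lower. Of all features 33.3% were then called in either direction, against 37.2% without that change.

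Splenic CD4 cells rose in fewer of the genes. Between allogeneic and syngeneic splenic CD4 cells, 15 genes were called higher and 0 lower, where 9.28% of all features were called higher and 5.26% lower. All 15 were also called higher in CD8 cells. In 26 genes, these 15 among them, both allogeneic arrays lay above both syngeneic arrays, as in 27.5% of all features. They were Mcm3, Mcm6, Mcm10, Cdc6, Gmnn, Gins1, Pola1, Rrm2, Tk1, Dut, Lig1, Rpa2, Chaf1a, Ccne1 and Dtl. The median log2 difference was 0.50 against 0.03 over all features. With the dim spots left out, an alternative added after the data were seen, 17 genes were called, the same 15 with Pole and Chek1, and the median was 0.53. Of all features 15.1% were then called in either direction, against 14.5% with those spots. The count depends on few arrays and changed with each array left out, which leaves a single array in that group. Without syngeneic replicate 1 the gene median was 0.38, and without allogeneic replicate 1 it was 0.33. Without allogeneic replicate 2 it was 0.55, and there replicate 1 with its dim area stood alone. When only the 4 CD4 spleen arrays were fitted, 0 genes were called, and 0 of all 26891 features. The gene median was 0.50 with the slide as a block, 0.51 on slide 1 and 0.23 on slide 2.

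**Figure D2:**
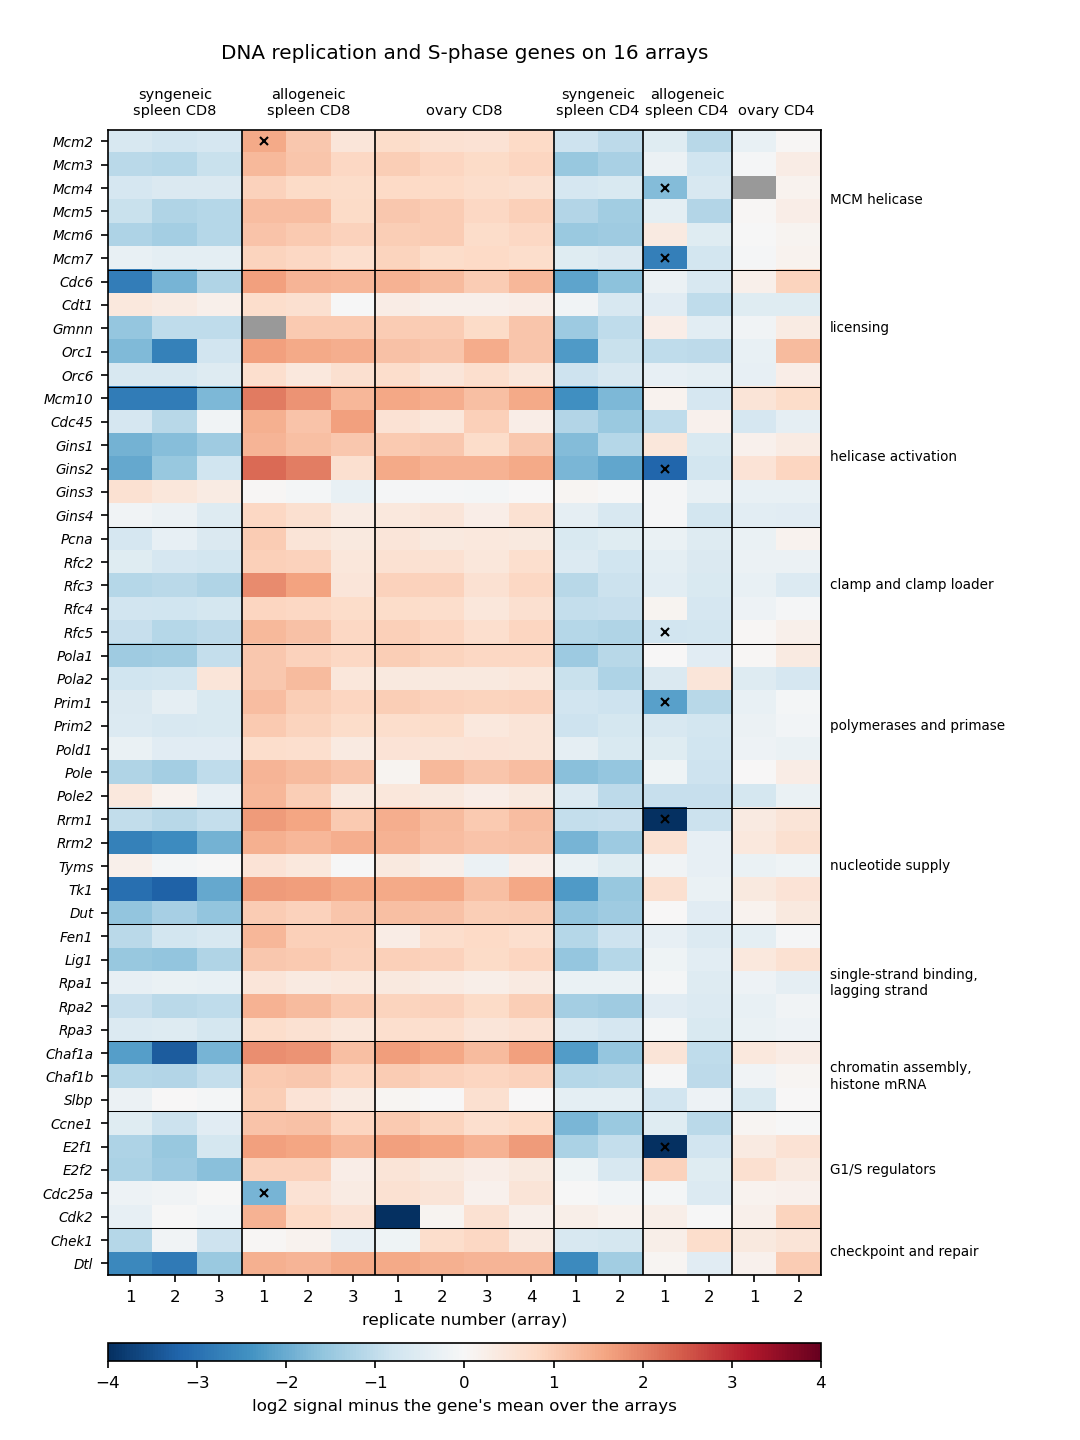
Level of the 49 measured genes on the 16 arrays, each as log2 signal minus the gene's mean over the arrays, grouped by role. Crosses mark probes inside dim areas of an array, grey cells are missing spots, and colours end at 4 units on either side, beyond which lie Rrm1 and E2f1 on allogeneic splenic CD4 replicate 1 and Cdk2 on ovarian CD8 replicate 1. For most genes syngeneic arrays are low, allogeneic and ovarian CD8 arrays high, and CD4 arrays after allogeneic transplantation in between.

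The Mcm2 to Mcm7 genes encode the ring-shaped replicative helicase, and all 6 were called higher in allogeneic than in syngeneic splenic CD8 cells, by 1.16 (Mcm7) to 2.29 (Mcm6). Here and for each role below, the share of all features called higher was 16.9% in CD8 and 9.28% in CD4 cells. Mcm6 levels were 4.99, 4.87 and 5.10 in syngeneic, 7.38, 7.29 and 7.17 in allogeneic splenic and 7.21, 7.26, 6.97 and 7.08 in ovarian CD8 cells. In CD4 cells they were 4.75 and 4.82 (syngeneic), 6.59 and 5.74 (allogeneic spleen) and 6.22 and 6.34 (ovary). Both syngeneic groups lay below every other array, and the ovarian CD4 arrays within the span of the allogeneic splenic CD4 arrays. The difference between allogeneic and syngeneic spleen was 2.29 ± 0.19 in CD8 (standard error throughout, 4.89-fold, limma adjusted p = 2.0e-06) and 1.38 ± 0.23 in CD4 cells (2.61-fold, limma adjusted p = 0.0022). Mcm3 stood at 3.14, 3.09 and 3.33 in syngeneic, 5.52, 5.34 and 5.06 in allogeneic splenic and 5.20, 5.10, 5.0 and 5.08 in ovarian CD8 cells. Its CD4 levels were 2.72 and 2.93 (syngeneic), 3.98 and 3.45 (allogeneic spleen) and 4.18 and 4.52 (ovary), a rise of 0.88 ± 0.21 from syngeneic to allogeneic spleen (limma adjusted p = 0.017) against 2.12 ± 0.17 in CD8 cells. Both ovarian CD4 arrays lay above both splenic ones for Mcm3, but the difference of 0.64 ± 0.21 was not called (limma adjusted p = 0.20). Mcm5 levels were 2.57, 2.28 and 2.34 in syngeneic, 4.71, 4.72 and 4.24 in allogeneic splenic and 4.55, 4.49, 4.32 and 4.44 in ovarian CD8 cells. In CD4 cells Mcm5 read 2.30 and 2.08 (syngeneic), 3.08 and 2.30 (allogeneic spleen) and 3.53 and 3.73 (ovary). One allogeneic splenic CD4 array lay level with the syngeneic ones and the other above, so that the CD4 difference of 0.50 ± 0.25 was not called (limma adjusted p = 0.21), while the CD8 difference was 2.16 ± 0.20 (4.46-fold).

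Mcm4 and Mcm7 read low in CD4 cells on the array with the dim area. Mcm7 levels were 3.69 and 3.58 in syngeneic, 1.43 and 3.43 in allogeneic splenic and 4.11 and 4.30 in ovarian CD4 cells, the 1.43 being the spot in that area. The CD4 difference between allogeneic and syngeneic spleen was -1.20 ± 0.43 with that spot and -0.20 ± 0.18 without it, and neither was called. For Mcm4 it was -0.55 ± 0.27 with the spot and 0.01 ± 0.18 without. In CD8 cells Mcm4 rose by 1.41 ± 0.22. Mcm2 rose there by 1.72 ± 0.23, or 1.48 ± 0.22 without its spot in a weaker dim area, which read 3.34.

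Licensing factors prepare origins for replication, and 4 of the 5 were called higher in allogeneic splenic CD8 cells: Cdc6, Orc1, Gmnn and Orc6. Cdc6, which loads the helicase and is scarce in resting cells, stood at -3.80, -2.88 and -2.23 in syngeneic, 0.63, 0.34 and 0.32 in allogeneic splenic and 0.37, 0.24, -0.02 and 0.32 in ovarian CD8 cells. In CD4 cells the values were -3.12 and -2.66 (syngeneic), -1.26 and -1.66 (allogeneic spleen) and -0.81 and -0.14 (ovary). Cdc6 thus lay lowest on the syngeneic arrays, between on the CD4 arrays after allogeneic transplantation and highest on the CD8 arrays after it, with no overlap between these steps. Cdc6 rose by 3.40 ± 0.33 in CD8 (10.6-fold, limma adjusted p = 7.4e-06) and 1.43 ± 0.40 in CD4 cells (2.70-fold, limma adjusted p = 0.034). Orc1, the largest subunit of the origin recognition complex, was well above background on all 3 allogeneic splenic CD8 arrays and on none of the 3 syngeneic ones. It passed the filter only through the CD8 groups where it was high, so its calls against other groups are description and not independent support. Against each array's lowest signal well above background it was at least 4.37-fold higher in allogeneic than in syngeneic splenic CD8 cells (limma adjusted p = 2.2e-04), and at least 2.39-fold higher than in allogeneic splenic CD4 cells, where it was not well above background on either array (limma adjusted p = 0.0054). Gmnn, the geminin gene, whose product holds Cdt1 inactive during S phase, rose by 2.25 ± 0.25 in CD8 and 1.17 ± 0.28 in CD4 cells. Cdt1, its partner, was not called: its levels were 5.50, 5.39 and 5.27 in syngeneic and 5.77, 5.71 and 5.06 in allogeneic splenic CD8 cells, which overlap, with an allogeneic minus syngeneic difference of 0.13 ± 0.21 (limma adjusted p = 0.65).

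Helicase activation brought the widest contrast within 1 role. Mcm10, which binds the loaded helicase as origins fire, stood at -1.65, -1.65 and -0.66 in syngeneic, 3.22, 2.94 and 2.46 in allogeneic splenic and 2.70, 2.61, 2.34 and 2.66 in ovarian CD8 cells. In CD4 cells it read -1.31 and -0.66 (syngeneic), 1.29 and 0.48 (allogeneic spleen) and 1.67 and 1.87 (ovary). No array of the allogeneic or ovarian groups overlapped the syngeneic arrays of its subset. The rise was 4.19 ± 0.31 in CD8 (18.3-fold, limma adjusted p = 8.6e-07) and 1.87 ± 0.38 in CD4 cells (3.65-fold, limma adjusted p = 0.0071). Gins1, a GINS subunit, had levels of -0.78, -0.59 and -0.31 in syngeneic, 2.46, 2.32 and 2.19 in allogeneic splenic and 2.17, 2.20, 1.85 and 2.20 in ovarian CD8 cells. On the CD4 arrays it read -0.63 and -0.03 (syngeneic), 1.56 and 0.50 (allogeneic spleen) and 1.29 and 1.44 (ovary), a rise of 1.36 ± 0.31 from syngeneic to allogeneic spleen against 2.88 ± 0.25 in CD8 cells. The 4 GINS genes did not move together. In CD8 cells Gins2 rose by 3.11 ± 0.55 and Gins4 by 0.90 ± 0.20, while Gins3 fell, from 5.94, 5.79 and 5.66 in syngeneic to 5.38, 5.28 and 5.03 in allogeneic splenic cells (-0.56 ± 0.13, limma adjusted p = 0.0059). Gins3 stayed at 5.31, 5.28, 5.26 and 5.35 in ovarian CD8 cells. It was called lower under quantile normalization, normexp with quantile normalization and the authors' value table as well, and was not called on slide 2 alone (-0.69). Cdc45, the third partner of the active helicase, rose by 2.05 ± 0.32 in CD8 cells and read -0.34, -0.63 and -0.13 in allogeneic spleen against -1.19, -1.31, -0.83 and -1.52 in ovary, with all 4 ovarian arrays below all 3 splenic arrays, although the difference of -0.85 ± 0.30 was not called (limma adjusted p = 0.41).

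The sliding clamp, encoded by Pcna, tethers polymerases to DNA, and the Rfc2 to Rfc5 products load it. All 5 genes were called higher in allogeneic splenic CD8 cells, by 1.17 (Pcna) to 2.47 (Rfc3). In allogeneic splenic CD4 cells 0 of the 5 were called, where 9.28% of all features were called higher, with CD4 differences of 0.15 to 0.65. Rfc5 levels were 2.55, 2.34 and 2.45 in syngeneic, 4.80, 4.67 and 4.33 in allogeneic splenic and 4.45, 4.36, 4.16 and 4.35 in ovarian CD8 cells. In CD4 cells they were 2.36 and 2.29 (syngeneic), 2.72 and 2.75 (allogeneic spleen) and 3.52 and 3.71 (ovary). The CD8 arrays rose by 2.15 ± 0.15 (4.44-fold, limma adjusted p = 4.1e-07), while the CD4 difference was 0.40 ± 0.18, or 0.42 ± 0.22 without its spot in the dim area, not called either way. Rfc5 is 1 of 2 genes called higher in ovarian than in allogeneic splenic CD4 cells, by 0.88 ± 0.18 (limma adjusted p = 0.046). One of its 2 splenic spots lay in the dim area and read 2.72, close to the other, and without that spot the difference was 0.87 ± 0.22 and no longer called (limma adjusted p = 0.10).

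DNA polymerase alpha and primase start each new strand, polymerase epsilon extends the leading strand and polymerase delta the lagging strand. All 7 genes of this role were called higher in allogeneic splenic CD8 cells, by 0.81 (Pole2) to 2.44 (Pole), and 1, Pola1, in allogeneic splenic CD4 cells. Pola1, the catalytic subunit of polymerase alpha, had levels of 0.20, 0.25 and 0.67 in syngeneic, 2.70, 2.55 and 2.46 in allogeneic splenic and 2.61, 2.53, 2.47 and 2.46 in ovarian CD8 cells. In CD4 cells it read 0.18 and 0.53 (syngeneic), 1.64 and 1.18 (allogeneic spleen) and 1.68 and 1.98 (ovary). The rise was 2.20 ± 0.18 in CD8 (4.59-fold, limma adjusted p = 1.7e-06) and 1.05 ± 0.22 in CD4 cells (limma adjusted p = 0.0075). Prim2, the large primase subunit, stood at 0.61, 0.52 and 0.57 in syngeneic, 2.22, 2.05 and 1.91 in allogeneic splenic and 1.86, 1.90, 1.59 and 1.69 in ovarian CD8 cells. Its CD4 levels were 0.35 and 0.46 (syngeneic), 0.53 and 0.45 (allogeneic spleen) and 0.93 and 1.06 (ovary). Allogeneic splenic CD4 cells thus overlapped the syngeneic ones for Prim2, with a difference of 0.09 ± 0.16, whereas CD8 cells rose by 1.49 ± 0.13 (limma adjusted p = 3.3e-06). Prim1, the catalytic primase subunit, is the other gene called higher in ovarian than in allogeneic splenic CD4 cells (1.45 ± 0.27, limma adjusted p = 0.033). In CD4 cells the values were 2.64 and 2.57 in syngeneic, 1.24 and 2.28 in allogeneic splenic and 3.10 and 3.34 in ovarian cells, the 1.24 lying in the dim area. Without that spot the difference was 0.93 ± 0.21 and was not called (limma adjusted p = 0.065).

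Genes of nucleotide supply included the largest rises. Tk1, thymidine kinase of the salvage pathway, stood at -0.51, -0.71 and 0.49 in syngeneic, 4.22, 4.19 and 4.05 in allogeneic splenic and 4.04, 4.06, 3.74 and 4.08 in ovarian CD8 cells. In CD4 cells it read 0.27 and 1.02 (syngeneic), 3.17 and 2.25 (allogeneic spleen) and 2.93 and 3.08 (ovary). Syngeneic arrays of both subsets lay apart from all others. The rise was 4.40 ± 0.31 in CD8 (21.0-fold, limma adjusted p = 6.5e-07) and 2.07 ± 0.39 in CD4 cells (4.20-fold, limma adjusted p = 0.0044). Rrm2, the regulated subunit of ribonucleotide reductase, had levels of 1.47, 1.65 and 2.28 in syngeneic, 5.60, 5.50 and 5.64 in allogeneic splenic and 5.56, 5.40, 5.32 and 5.35 in ovarian CD8 cells. On the CD4 arrays it read 2.32 and 2.73 (syngeneic), 4.80 and 3.84 (allogeneic spleen) and 4.59 and 4.82 (ovary), a rise of 1.80 ± 0.31 against 3.78 ± 0.25 in CD8 cells (13.7-fold). Dut, which keeps uracil out of DNA, read 1.61, 1.85 and 1.61 in syngeneic, 4.19, 4.11 and 4.28 in allogeneic splenic and 4.37, 4.34, 4.17 and 4.19 in ovarian CD8 cells. In CD4 cells its levels were 1.61 and 1.74 (syngeneic), 3.18 and 2.73 (allogeneic spleen) and 3.33 and 3.57 (ovary). Dut rose by 2.50 ± 0.15 in CD8 and 1.28 ± 0.18 in CD4 cells (limma adjusted p = 1.3e-07 and 8.1e-04).

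Rrm1, the large subunit of ribonucleotide reductase and partner of Rrm2, rose by 2.45 ± 0.61 in CD8 cells, and in CD4 cells read 1.42 and 1.45 (syngeneic), -2.03 and 1.50 (allogeneic spleen) and 2.73 and 2.89 (ovary). The -2.03 lay in the dim area. The CD4 difference between allogeneic and syngeneic spleen was -1.70 ± 0.75 with it and 0.06 ± 0.26 without it, and neither was called. Between ovarian and allogeneic splenic CD4 cells it was 3.08 ± 0.75 with the spot, not called, and 1.31 ± 0.26 without it, called (limma adjusted p = 0.047). Tyms, thymidylate synthase, was not well above background on 2 arrays and had a CD8 difference of 0.29 ± 0.19, not called.

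Single-strand binding and lagging-strand genes were called higher in allogeneic splenic CD8 cells in 5 of 5 cases. Rpa2, a subunit of the single-strand binding protein RPA, had the smallest adjusted p of all 49 genes. It read 0.75, 0.59 and 0.65 in syngeneic, 3.07, 2.92 and 2.72 in allogeneic splenic and 2.57, 2.60, 2.43 and 2.65 in ovarian CD8 cells. In CD4 cells its levels were 0.31 and 0.26 (syngeneic), 1.21 and 1.11 (allogeneic spleen) and 1.36 and 1.51 (ovary). Each subset thus stepped up from syngeneic to allogeneic spleen without overlap, and the CD8 step was the larger: 2.24 ± 0.13 (4.72-fold, limma adjusted p = 1.1e-07) against 0.88 ± 0.16 in CD4 cells (limma adjusted p = 0.0034). Lig1, the ligase that joins lagging-strand fragments, stood at 3.06, 3.02 and 3.40 in syngeneic, 5.66, 5.65 and 5.52 in allogeneic splenic and 5.53, 5.52, 5.36 and 5.46 in ovarian CD8 cells. Its CD4 levels were 3.05 and 3.44 (syngeneic), 4.41 and 4.18 (allogeneic spleen) and 5.0 and 5.18 (ovary). Lig1 rose by 2.45 ± 0.15 in CD8 and 1.05 ± 0.19 in CD4 cells, and its ovarian CD4 arrays lay above the splenic ones by an uncalled 0.80 ± 0.19 (limma adjusted p = 0.076). Rpa1 and Rpa3, the other RPA subunits, rose by 0.72 ± 0.13 and 1.17 ± 0.15 in CD8 cells and were not called in CD4 cells, and Fen1, the flap endonuclease, rose by 1.90 ± 0.19.

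Chromatin assembly factor 1 places histones on new DNA, and both its large subunits rose in CD8 cells. Chaf1a went from -1.63, -2.76 and -1.29 in syngeneic to 2.43, 2.39 and 1.79 in allogeneic splenic CD8 cells, a rise of 4.09 ± 0.41 (17.0-fold), and its CD4 rise of 1.63 ± 0.51 was called at a limma adjusted p of 0.049. Chaf1b levels were 2.59, 2.55 and 2.79 in syngeneic, 4.77, 4.81 and 4.58 in allogeneic splenic and 4.74, 4.65, 4.58 and 4.65 in ovarian CD8 cells. In CD4 cells they were 2.61 and 2.63 (syngeneic), 3.69 and 2.70 (allogeneic spleen) and 3.60 and 3.80 (ovary). The 2 allogeneic splenic CD4 arrays disagreed for Chaf1b, 1 near the ovarian and 1 near the syngeneic level, and the CD4 difference of 0.57 ± 0.25 was not called, while the CD8 difference was 2.08 ± 0.20. Slbp, which binds the stem-loop of replication-dependent histone mRNAs, rose by 0.73 ± 0.24 in CD8 cells.

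Among the G1/S regulators 3 of 5 measured genes were called higher in allogeneic splenic CD8 cells: Ccne1, E2f1 and E2f2. Ccne1, cyclin E1, stood at 2.25, 1.89 and 2.29 in syngeneic, 3.90, 3.92 and 3.61 in allogeneic splenic and 3.80, 3.64, 3.41 and 3.54 in ovarian CD8 cells. In CD4 cells the values were 0.92 and 1.27 (syngeneic), 2.26 and 1.66 (allogeneic spleen) and 2.83 and 2.72 (ovary). Within each source the CD8 arrays lay above the CD4 arrays, and Ccne1 was the 1 gene of the 49 called between the subsets of the syngeneic spleen (1.05 ± 0.21, limma adjusted p = 0.016). It rose by 1.67 ± 0.19 in CD8 and 0.87 ± 0.23 in CD4 cells. E2f2, an activating E2F factor, rose by 2.18 ± 0.30 in CD8 cells. Its syngeneic level was higher in CD4 than in CD8 cells without overlap, 3.85 and 3.38 against 2.73, 2.57 and 2.33, and the difference of -1.07 ± 0.34 was not called (limma adjusted p = 0.13). In the ovary its levels were 4.66 and 4.39 in CD4 and 4.53, 4.41, 4.29 and 4.42 in CD8 cells. E2f1, the related factor, rose by 2.67 ± 0.78 in CD8 cells, and its CD4 spleen levels were -0.74 and -0.42 (syngeneic) and -4.82 and -0.25 (allogeneic), of which the -4.82 lay in the dim area. Its CD4 difference was -1.96 ± 0.96 with that spot and 0.33 ± 0.30 without it. Cdc25a, the phosphatase that activates Cdk2, read 0.68, 0.75 and 0.88 in syngeneic and -0.95, 1.47 and 1.22 in allogeneic splenic CD8 cells. Its -0.95 lay in a weaker dim area, and the difference was -0.19 ± 0.47 with it and 0.58 ± 0.18 without it, which was then called (limma adjusted p = 0.025). Cdk2 read -2.44, -2.14 and -2.22 in syngeneic and -0.74, -1.32 and -1.54 in allogeneic splenic CD8 cells without overlap, but 1 ovarian spot at -7.02 widened its error, and the difference of 1.07 ± 1.08 was not called.

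**Figure D3:**
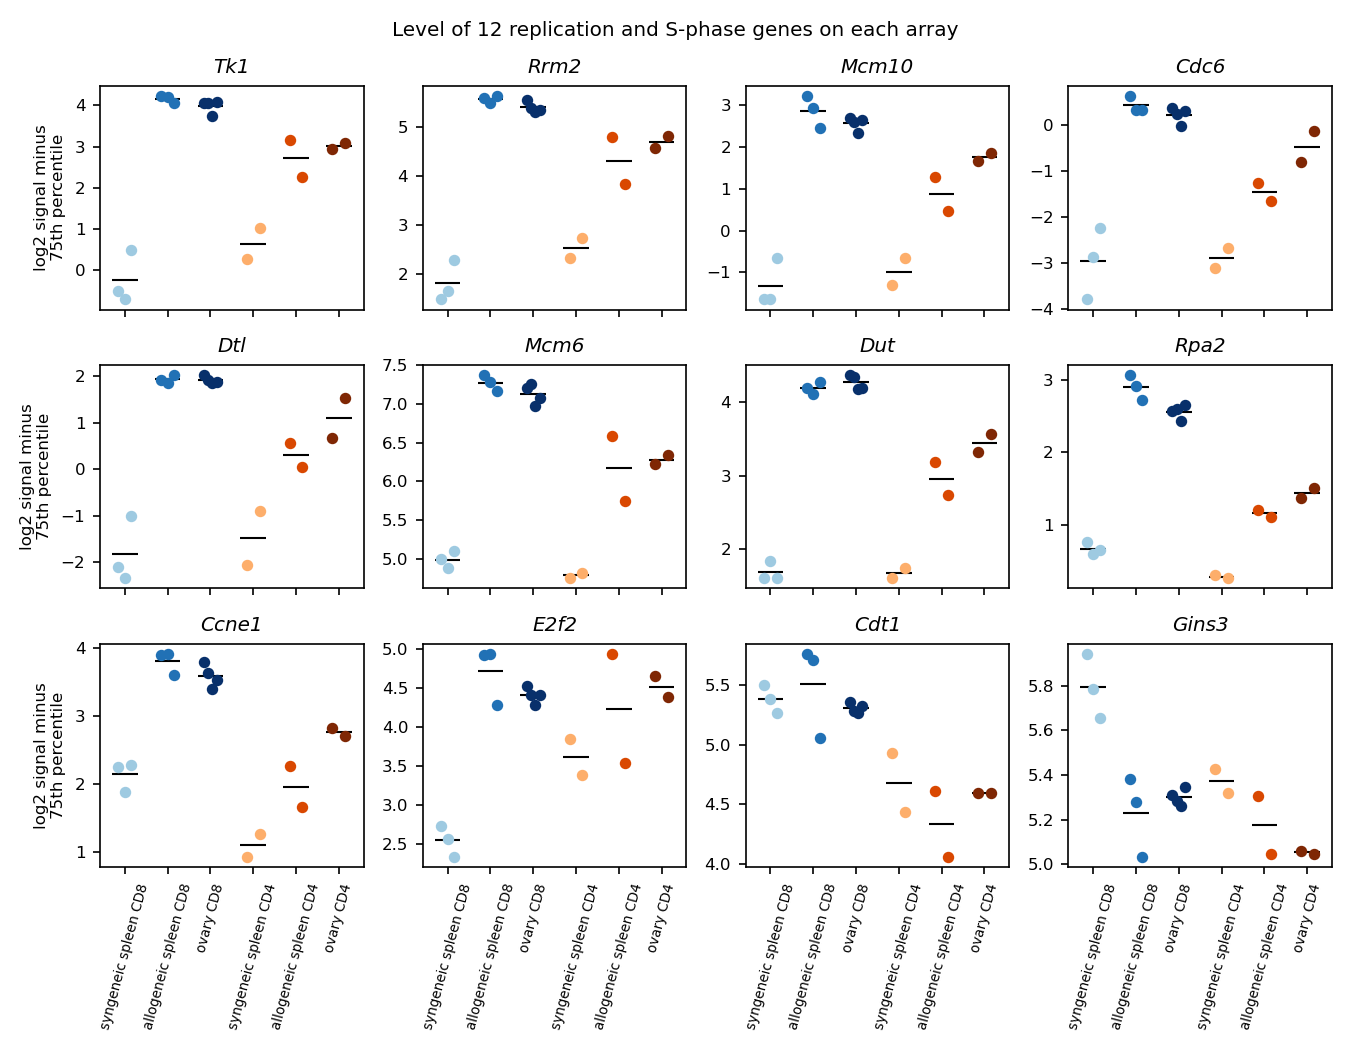
Level (log2 signal minus the array's 75th percentile) of 12 replication and S-phase genes on each array, with a line at the group mean; each panel has its own axis. In 9 of the panels (Tk1 to Ccne1) the syngeneic arrays of each subset lie below all its allogeneic and ovarian arrays, E2f2 overlaps in CD4 cells, Cdt1 overlaps between the CD8 groups, and Gins3 runs the other way in CD8 cells.

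Of the checkpoint and repair genes, Dtl and Chek1 were measured. Dtl encodes the substrate receptor of the ubiquitin ligase that destroys Cdt1 during S phase. It stood at -2.09, -2.34 and -1.0 in syngeneic, 1.92, 1.86 and 2.01 in allogeneic splenic and 2.02, 1.90, 1.84 and 1.86 in ovarian CD8 cells. In CD4 cells it read -2.05 and -0.89 (syngeneic), 0.56 and 0.05 (allogeneic spleen) and 0.66 and 1.52 (ovary). The rise was 3.74 ± 0.36 in CD8 (13.3-fold, limma adjusted p = 7.5e-06) and 1.78 ± 0.44 in CD4 cells (3.42-fold, limma adjusted p = 0.020). Chek1, the kinase of the replication checkpoint, had a CD8 difference of 0.65 ± 0.29, not called. In CD4 cells it was not well above background on either syngeneic array and was so on 1 of the 2 allogeneic arrays, and it was not called (limma adjusted p = 0.053).

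The transplant difference was larger in CD8 than in CD4 cells, and this was tested as an interaction. The CD8 difference exceeded the CD4 difference in 47 of the 49 genes, and in 31 the interaction was called (4.48% of all features were called in that direction), with 0 in the other direction. The median of the interaction was 1.33 over the 49 genes and -0.15 over all features. With the dim spots left out 31 were again called, 30 of them the same, with Rfc4 in place of Gins2. Of all features 11.8% were then called in either direction, against 10.5% with those spots. For Rfc5 the interaction was 1.75 ± 0.23 (limma adjusted p = 0.0011) with the spot in the dim area and 1.73 ± 0.27 without it. For Rpa2, whose probe lay outside, it was 1.36 ± 0.20 (limma adjusted p = 0.0023), and for Tk1 2.33 ± 0.50 (limma adjusted p = 0.014). Across the 49 genes, which are not independent replicates and share the same 10 spleen arrays, the differences in both subsets had a Pearson r of 0.55, and of 0.82 without the dim spots. The count fell without syngeneic CD4 replicate 2, which leaves a single array in that group (median 1.27). It fell to 6 when only the spleen groups were fitted, where 3.55% of all features were called. The median was 1.35 with the slide as a block and 1.27 and 1.31 on each slide alone.

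**Figure D4:**
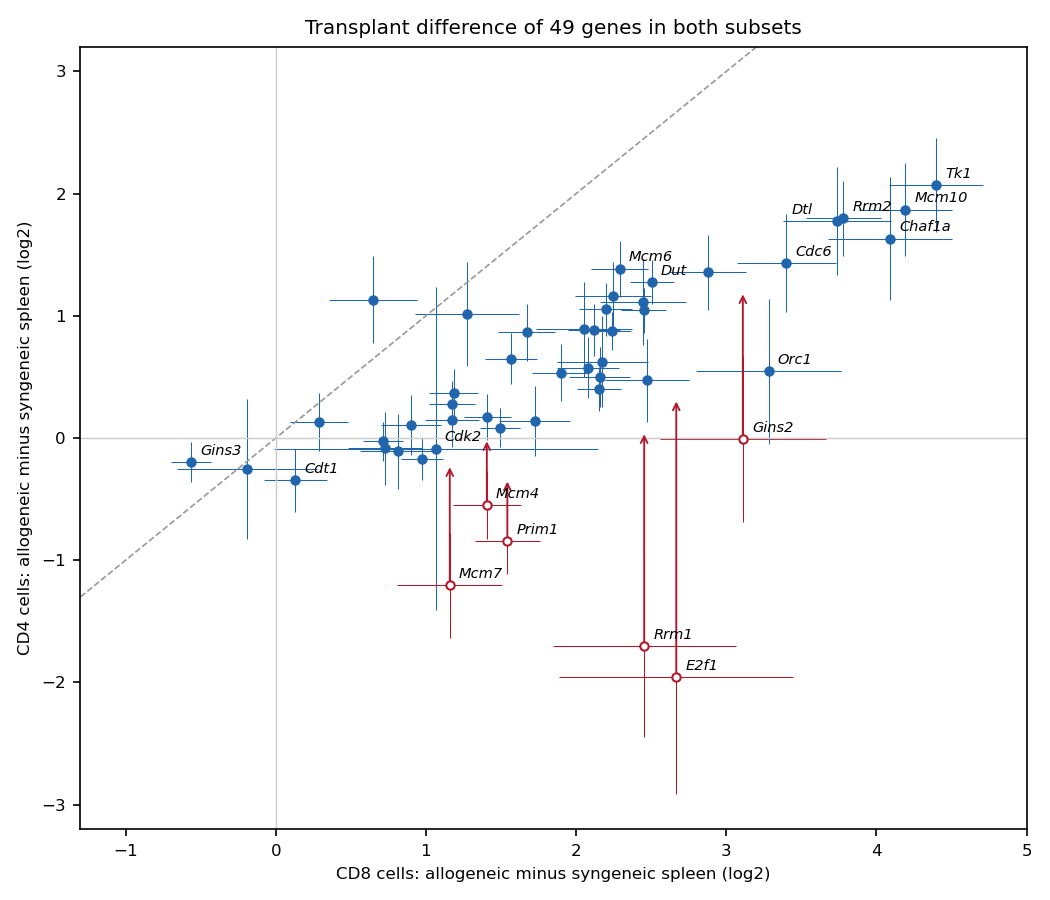
Difference between allogeneic and syngeneic spleen of each of the 49 genes in CD8 cells (horizontal) and CD4 cells (vertical), in log2 units with standard errors; the dashed line marks equal differences. Open red points had a CD4 spot in the dim area and moved by more than 0.05 without it, to the arrow's tip. Of the 49 genes 47 lie below the line, with Tk1, Mcm10, Chaf1a, Rrm2 and Dtl at the upper right.

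Between ovarian and allogeneic splenic CD8 cells most replication genes read slightly lower in the ovary, and none passed the test. Of the 49 genes 0 were called by limma, 5 had an unadjusted p under 0.05, and 0.376% of all features were called. The median difference was -0.18, against 0.03 over all features, and 6 of the 49 differences were above 0, where 54.9% of all features were. The median was -0.16 with the slide as a block, and -0.20 and -0.01 on each slide alone. For Tk1 the ovarian minus splenic difference was -0.17 ± 0.29, for Mcm6 -0.15 ± 0.18 and for Dut 0.08 ± 0.14. Without allogeneic splenic replicate 3, 1 gene was called, lower in the ovary (0.725% of all features were called). A gene that is not called is not thereby shown to be equal. Hsd3b1, Cyp11a1 and Mgp, ovarian markers given above, moved with the tissue here, and Hsd3b1 and Nr5a2 in the CD4 comparison that follows, and their part was not tested.

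CD4 cells of the ovary stood above allogeneic splenic CD4 cells in most of the genes, but few single genes passed the test. The difference was above 0 in 44 of the 49 genes, where 44.6% of all features were, and its median was 0.42 against -0.06 over all features. Both ovarian arrays lay above both splenic arrays in 26 genes (14.7% of all features). Only Rfc5 and Prim1 were called (0.316% of all features were called higher), and both have a spot in the dim area. Without its dim spots Rrm1 alone was called (0.811% of all features were called in either direction), and the median stayed at 0.42 with 44 differences above 0. The count changed with each array left out, which leaves a single array in that group, and the median ran from 0.24 to 0.69. The 0.24 was without splenic replicate 2, where replicate 1 with its dim area stood alone. When only the 4 arrays were fitted, 0 genes and 0 of all 26891 features were called. The median was 0.42 with the slide as a block, 0.15 on slide 1, which holds the dim area, and 0.80 on slide 2, where both arrays were dim. The median level of the 49 genes was 1.56 and 1.50 on the allogeneic splenic CD4 arrays (1.81 on the first without its dim spots) and 2.33 and 2.65 on the ovarian CD4 arrays, so both ovarian arrays were above both splenic ones either way. The interaction of tissue and subset was called for 0 genes by limma, where 20 had an unadjusted p under 0.05 and 0.0223% of all features were called. Its median was -0.62, the CD8 difference being the lower. With the dim spots left out 0 genes were again called (0.0483% of all features) and the median was the same. Without the 2 dimmest arrays it was -0.38, with allogeneic splenic CD4 replicate 1 and its dim area alone in its group.

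CD8 cells exceeded CD4 cells in the replication genes wherever the transplant was allogeneic. In the allogeneic spleen 42 of the 49 were called higher in CD8 cells (13.0% of all features), with a median difference of 1.44, and without the dim spots 43, the same 42 and Cdc25a. In the ovary 24 were called higher in CD8 cells (7.12% of all features), with a median of 0.76, and without the dim spots 29, the same 24 with Cdc45, E2f1, Mcm4, Mcm7 and Rrm1. Without those spots 26.8% of all features were called in either direction in the spleen and 17.8% in the ovary, against 26.6% and 15.2% with them. Rpa2 had the smallest p in both sources, with differences of 1.74 ± 0.14 in the spleen (limma adjusted p = 1.8e-05) and 1.13 ± 0.14 in the ovary (limma adjusted p = 3.0e-04). In the syngeneic spleen the subsets were close, with a median of 0.05 against 0.11 over all features and Ccne1 alone called (1.13% of all features were called higher in CD8 cells). The ovarian count fell without ovarian CD4 replicate 1 (median 0.67) or replicate 2 (median 0.88), which leaves a single array in that group. It was 14 under quantile normalization (12.9% of all features). The allogeneic spleen count was 11 when only its 5 arrays were fitted (3.69% of all features). On slide 1 alone and slide 2 alone the medians were 1.33 and 1.42 in the allogeneic spleen, 0.91 and 0.61 in the ovary, and 0.05 and 0.10 in the syngeneic spleen, and with the slide as a block 1.44, 0.76 and 0.07. The CD4 samples also held more macrophage RNA, as given above, and its part in these differences was not tested.

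Of the other genes of the replication pathway more than 1 in 2 were also higher in allogeneic splenic CD8 cells. A second list of 61 genes outside the first, all measured, was written with earlier results of these data known. In allogeneic against syngeneic splenic CD8 cells 37 were called higher and 3 lower (Mcmbp, Orc4 and Asf1a), with a median of 0.89, where 16.9% of all features were called higher and 20.3% lower. The 6 with the smallest p were Ccna2 (4.71 ± 0.24), the S and G2 phase cyclin, E2f7 (4.56 ± 0.26), a repressive E2F factor, Asf1b (2.54 ± 0.16), a histone chaperone, Wee1 (2.71 ± 0.18), the kinase that restrains Cdk1, Rnaseh2b (1.94 ± 0.13), a ribonuclease H2 subunit, and Fbxo5 (2.06 ± 0.15), an inhibitor of the anaphase-promoting complex. In CD4 cells 10 were called higher and 2 lower (Orc5 and Mcmbp; 9.28% and 5.26% of all features), with a median of 0.34, and 12 higher and 2 lower without the dim spots. The 6 with the smallest p there were Ccna2 (2.20 ± 0.30), E2f7 (2.12 ± 0.32), E2f8 (2.01 ± 0.36), the other repressive E2F factor, Wee1 (1.13 ± 0.22), Uhrf1 (1.39 ± 0.28), which guides DNA methylation to new strands, and Exo1 (1.69 ± 0.38), an exonuclease of mismatch repair. Between ovary and spleen 0 of the 61 were called by limma in either subset, with 1 (CD8) and 19 (CD4) at an unadjusted p under 0.05.

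Mitosis genes, which act after replication, were higher after allogeneic transplantation too. Of 30 such genes, all measured, 29 were called higher in allogeneic than in syngeneic splenic CD8 cells, with a median of 3.80, and 20 in CD4 cells, with a median of 1.49 (22 and 1.49 without the dim spots). Of all features 16.9% were called higher in CD8 and 9.28% in CD4 cells. Mki67, the proliferation marker Ki-67, stood at 1.67, 1.81 and 2.31 in syngeneic, 5.68, 5.72 and 5.90 in allogeneic splenic and 5.78, 5.65, 5.78 and 5.53 in ovarian CD8 cells. On the CD4 arrays it read 2.65 and 2.82 (syngeneic), 5.06 and 4.17 (allogeneic spleen) and 4.82 and 5.13 (ovary). Mki67 thus followed the same order as most replication genes, with rises of 3.84 ± 0.23 in CD8 and 1.88 ± 0.28 in CD4 cells. Top2a, the topoisomerase that untangles copied chromosomes, rose by 4.18 ± 0.27 and 1.90 ± 0.29. The 6 with the smallest p in CD8 cells were Ccnb2 (4.46 ± 0.16), Prc1 (4.69 ± 0.18), Ube2c (4.81 ± 0.20), Aurka (3.44 ± 0.16), Cdk1 (4.38 ± 0.21) and Nusap1 (4.40 ± 0.23), and Ccnb2, a mitotic cyclin, was the 1 mitosis gene called between ovarian and allogeneic splenic CD4 cells (0.99 ± 0.20, limma adjusted p = 0.048). Whether this list moved more than the replication genes was not tested.

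**Figure D5:**
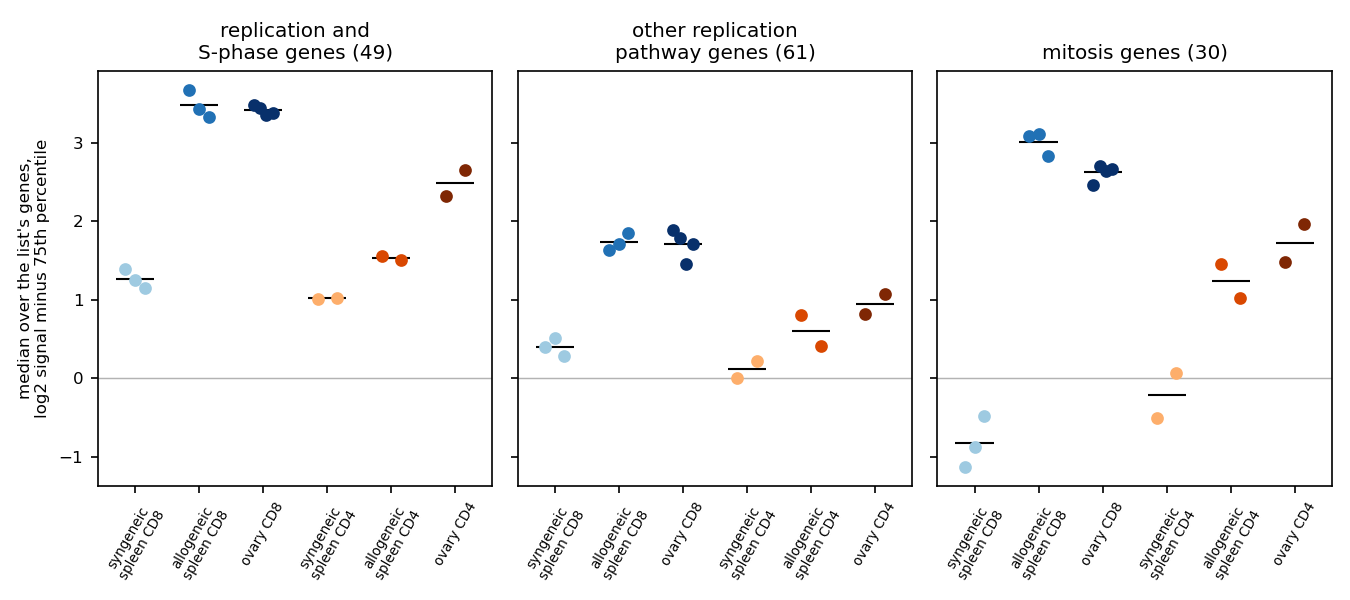
Median level of the replication and S-phase genes (left), the other genes of the pathway (middle) and the mitosis genes (right) on each array, in log2 signal minus the array's 75th percentile, with a line at the mean of each group. In all 3 lists both subsets rise from syngeneic to allogeneic spleen, CD8 arrays of ovary and allogeneic spleen lie highest, and ovarian CD4 arrays lie above the allogeneic splenic CD4 arrays. In the middle and right panels ovarian CD4 replicate 1 is barely above allogeneic splenic CD4 replicate 1 (0.82 against 0.80 and 1.48 against 1.46). That splenic array carries the dim area, whose spots are included here, so the CD4 order of these 2 lists is uncertain.

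Some inhibitors of cyclin-dependent kinases were higher after allogeneic transplantation. Of 7 such genes 4 were called higher and 0 lower in CD8 cells (Cdkn2a, Cdkn2b, Cdkn1a and Cdkn2c; 16.9% of all features), with a median of 1.85, and 3 higher and 0 lower in CD4 cells (Cdkn2a, Cdkn2b and Cdkn1a; 9.28% of all features), with a median of 0.02. Cdkn2a, a tumour suppressor gene of the INK4 locus, went from -2.88, -3.64 and -3.60 in syngeneic to 3.51, 3.89 and 3.93 in allogeneic splenic CD8 cells (7.15 ± 0.26, limma adjusted p = 5.8e-09). The other 3 genes had CD8 differences below 0 that were not called, -0.43 ± 0.24 for Cdkn1b, -0.98 ± 0.51 for Cdkn1c and -0.31 ± 0.26 for Cdkn2d. In CD4 cells Cdkn2c read -0.69 and -0.13 (syngeneic) and -4.74 and 1.34 (allogeneic spleen). The -4.74 was on replicate 1, the array with the dim area, and the CD4 median of 0.02 depends on it.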

How the data were processed

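Amplified RNA of sorted T cells was hybridised to 16 one-colour Agilent arrays on 2 slides, and scanned into deposited files whose headers name Agilent Feature Extraction 11.5.1.1. The deposited intensity used here is the processed signal, which that software had already corrected for background. The deposited value table holds log2 values, which matched the processed signal minus each array's 75th percentile and each probe's median, and served as an alternative. From the intensities, log2 minus each array's 75th percentile over non-control spots was taken, outlier-flagged spots were set to missing, and a probe was kept if it was well above background throughout 1 of the groups or more. No spot was saturated. Each gene was represented by its probe of highest mean level, named through its accession in RefSeq (GRCm38.p6), and unnamed probes stayed single, giving 26891 features, 13697 of them with a symbol.

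limma 3.58.1 (R 4.3.3) fitted 6 group means over all 16 arrays (10 residual degrees of freedom), and p-values were Benjamini-Hochberg adjusted over all features in each of 9 comparisons. The gene lists and tests were chosen with earlier results of these data known. Values on every array are given for the 15 genes with the smallest adjusted p between allogeneic and syngeneic splenic CD8 cells and the leading gene of each role without one; genes of the other lists are the 6 with the smallest p, with Mki67 and Top2a. Other genes named, with Cdkn2a, were chosen after their values were seen. The fit was tested on simulated data. Alternatives covered normalization, background, filter, probes, slide, replicate block, arrays fitted and each array left out; leaving out the dim spots or the 2 dimmest arrays was added after the data were seen.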

Additional observations from a re-analysis of the deposited data

Results flagged for a closer look

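On the 4 ovarian CD8 arrays 5 of the 49 genes had 1 array far from the other 3 by Dixon's 95% criterion, which chance meets in about 1 of 20 groups. The lowest array stood apart for Gins1 (1.85), Pole (2.25), Tk1 (3.74) and Cdk2 (-7.02), and the highest for Slbp (1.43). The low arrays for Gins1 and Tk1 are both replicate 3. The Cdk2 spot lay in none of the dim areas found.

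The transplant difference was larger in CD8 than in CD4 cells by a test of the difference itself in 31 genes (limma, adjusted over all features). For the MCM genes it exceeded the CD4 difference by 1.58 (Mcm2), 1.23 (Mcm3), 1.95 (Mcm4), 1.66 (Mcm5) and 2.36 (Mcm7) on the log2 scale. For licensing and helicase activation the excess was 1.97 (Cdc6), 2.74 (Orc1), 2.32 (Mcm10), 1.52 (Gins1) and 3.12 (Gins2). For Orc1, no array of 3 of the 4 spleen groups rose well above background, and it passed the filter only through CD8 groups where it was high. Clamp and clamp loader genes gave 1.03 (Pcna), 1.24 (Rfc2), 2.00 (Rfc3) and 1.75 (Rfc5), and polymerase and primase genes 1.14 (Pola1), 2.38 (Prim1), 1.41 (Prim2) and 1.14 (Pold1). Nucleotide supply gave 4.16 (Rrm1), 1.98 (Rrm2), 2.33 (Tk1) and 1.23 (Dut). The single-strand binding and lagging-strand genes gave 1.36 (Fen1), 1.40 (Lig1), 0.75 (Rpa1), 1.36 (Rpa2) and 0.90 (Rpa3). The remaining genes were Chaf1a (2.46), Chaf1b (1.50), E2f1 (4.62) and Dtl (1.96). Without the spots in dim areas the excess was 1.34 ± 0.32 for Mcm2, 1.40 ± 0.22 for Mcm4, 1.36 ± 0.22 for Mcm7, 1.90 ± 0.71 for Gins2, 1.73 ± 0.27 for Rfc5, 1.86 ± 0.25 for Prim1, 2.39 ± 0.31 for Rrm1 and 2.33 ± 0.36 for E2f1 (standard error), and of these Gins2 was no longer called.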

How the results depend on the processing

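Over single genes called in a comparison or named, 2722 of 3388 values under the alternatives kept their direction and side of the threshold, 571 lost and 70 gained the call, and 25 changed sign; the cause of these changes was not tested except where spots or samples were taken out. Slide 2 alone left a single array in each CD4 group and in allogeneic splenic CD8 cells, and its medians are given above without counts. Slide 1 alone likewise left a single array in each CD4 group and in syngeneic splenic CD8 cells. Its allogeneic splenic CD4 array is the one with the dim area. The slide 1 counts are therefore a record and not support, and those of the CD4 transplant comparison went in both directions. With slide 1 alone the counts were 26 (CD4 transplant), 5 (CD4 tissue), 14 (ovary subsets), 0 (syngeneic subsets) and 5 (tissue interaction). Fitting only the groups compared gave 0 (CD4 transplant, 0% of all features), 0 (CD4 tissue, 0%), 11 (allogeneic subsets, 3.69%), 0 (syngeneic subsets, 1.64%) and 6 (transplant interaction, 3.55%). Without the filter on dim probes the counts were 0 (CD4 tissue, 0.0878% of all features), 12 (ovary subsets, 5.31%), 0 (syngeneic subsets, 1.27%) and 14 (transplant interaction, 2.2%). Between ovary and spleen in CD4 cells, normexp with quantile normalization called 5 (1.92% of all features). There the authors' value table called 1 (0.681%), and masking of dim spots 1 (0.811%). Between ovarian subsets, quantile normalization called 14 (12.9% of all features) and normexp with it 15 (13%). The slide as a block called 3 between syngeneic subsets (4.93% of all features). Without the 2 dimmest arrays 2 genes were called between syngeneic subsets (4.37% of all features). Allogeneic splenic CD4 replicate 1, with its dim area, then stood alone, with medians of 0.55 (CD4 transplant), 0.15 (CD4 tissue) and -0.38 (tissue interaction).

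Leaving out each array in turn gave counts of 40 to 44 (CD8 transplant), 5 to 25 (CD4 transplant), 0 to 1 (CD8 tissue), 0 to 7 (CD4 tissue), 8 to 20 (ovary subsets), 36 to 44 (allogeneic subsets), 0 to 2 (syngeneic subsets), 0 to 7 (tissue interaction) and 10 to 36 (transplant interaction). A group left with 1 array was assumed to vary like the others. Without allogeneic CD4 replicate 2, replicate 1 with its dim area stood alone, with medians of 0.55 (CD4 transplant), 0.24 (CD4 tissue) and -0.51 (tissue interaction). Same-numbered samples were not shown to be pairs, with correlations of their deviations of 0.05 to 0.34 between CD8 spleen groups, 0.07 to 0.32 between CD8 ovary and spleen, and 0.21 and 0.24 in CD4 cells. The replicate block called 44 genes (CD8 transplant, 41.2% of all features), 14 (CD4 transplant, 15.4%), 0 (CD8 tissue, 0.234%) and 0 (CD4 tissue, 0.35%). It called 21 between ovary subsets (15.2%), 43 between allogeneic subsets (34.1%) and 2 between syngeneic subsets (3.42%). For the tissue interaction it called 0 (0.00372%) and for the transplant interaction 28 (12.9%).

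Sign changes in the CD4 transplant difference were Gins2 (0.026 with quantile normalization, 0.011 with normexp as well, 1.34 on slide 2), Rfc5 (-0.10 with normexp and quantile), Chaf1b (-0.88 as a mean of probes), Rrm1 (0.051) and E2f1 (0.18) on slide 2. A further probe of Chaf1b, not the one used elsewhere, lay in the dim area of allogeneic CD4 replicate 1. Without allogeneic CD4 replicate 1, or with its dim spots masked, Mcm4 was 0.0073, Gins2 1.21, Rrm1 0.065 and E2f1 0.33. With 1 array left out at a time, the CD4 transplant difference ran from -1.10 to 0.0073 (Mcm4), -1.23 to 1.21 (Gins2), -3.47 to 0.065 (Rrm1) and -4.24 to 0.33 (E2f1), that of CD4 tissue from -0.22 to 0.53 and the tissue interaction from -0.71 to 0.045 for Rfc4. In CD4 tissue, slide 1 and the fit without the 2 dimmest arrays gave -0.30 (Rfc4) and -0.089 (Chaf1b). In the tissue interaction Rfc4 was 0.18 on slide 1 and 0.12 without the 2 dimmest arrays, where Chaf1b was 0.025. The GGCGGGAA core gave 16.7% of promoters in place of 40.5%.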
